A study of Mus musculus with 24 samples.

Results

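Transcripts of 9 mouse Toll-like receptor genes (Tlr1, Tlr2, Tlr3, Tlr4, Tlr6, Tlr7, Tlr8, Tlr9 and Tlr13) and of Unc93b1, whose protein carries the receptors of the endosome to their place in the cell, were followed in bone-marrow-derived dendritic cells. The 10 genes were chosen by symbol from the authors' annotation, out of 55487 genes in the count table, and all 10 passed the filter on low counts that left 14535 genes for testing. Cells were grown from marrow of male and female mice, 8 to 10 weeks old, in medium with GM-CSF. Both genotypes carried floxed Arpc4 alleles, the gene of one part of the Arp2/3 complex, which builds branched actin. Controls were ARPC4 Flox/Flox CD11c-Cre -/- (WT below) and knockouts were ARPC4 Flox/Flox CD11c-Cre +/- (KO below), in which Cre is made by cells that express CD11c. Cells were replated on days 4 and 7, the adherent cells were discarded, and the cells in suspension were taken on days 7, 8, 9 and 10 with no further agent named. Each of the 8 groups of 1 genotype and 1 day held 3 mice, which gave 24 libraries of stranded poly(A) RNA. The labels name no stimulus or receptor ligand.

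Toll-like receptors are membrane proteins that recognise molecules of microbes through a horseshoe-shaped ectodomain and signal through a cytoplasmic TIR domain. TLR1, TLR2, TLR4 and TLR6 work mainly at the cell surface, where TLR2 pairs with TLR1 or TLR6 to bind bacterial lipoproteins and TLR4 binds lipopolysaccharide together with MD-2. TLR3, TLR7, TLR8, TLR9 and TLR13 work in endosomes and bind nucleic acids, and they depend on UNC93B1 to leave the endoplasmic reticulum. All of these receptors except TLR3 signal through the adaptor MyD88, TLR3 uses TRIF, and TLR4 uses both. In dendritic cells their engagement leads to maturation and to the release of cytokines, and the set of receptors a cell carries decides which microbial products it can sense.

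Libraries held 19952047 to 31049798 counts. The KO libraries lay below the WT libraries for Arpc4 on each day, with no overlap and log2 fold changes of -0.28 to -0.18 that did not pass the threshold on any day in edgeR's quasi-likelihood test (adjusted p = 0.18 to 0.69). The CD11c gene Itgax was counted in all 24 libraries, with group means of 825 to 1459 CPM (TMM-scaled counts relative to the library total). Of 7 markers of plasmacytoid dendritic cells, which sense nucleic acids through TLR7 and TLR9, Siglech had 0 counts in 12 libraries and at most 8 in the others, and Ccr9 at most 9. Spib reached 227 counts, Pacsin1 131 and Ly6d 18, and each of these was counted in every library. Tcf4 and Runx2, which other cells also express, reached 921 and 1330 counts. The list summed to 48.7 to 73.7 CPM (72.9 to 73.7 CPM on day 7 and 52.2 to 55.9 CPM on day 8 in WT). The 5 B cell markers summed to no more than 7.02 CPM, while 9 macrophage markers summed to 2753 to 5779.6 CPM. The labels number the mice 63, 65 and 66 in WT and 64, 67 and 68 in KO on every day, and values are listed below in that order. The Y-linked gene Ddx3y was carried by 1 library of each group. These 8 libraries had the X-linked transcript Xist at 0.0401 to 0.427 CPM, and the other 16 had it at 496 to 948 CPM. In WT the library with Ddx3y was always mouse 63. In KO it was mouse 64 for days 7 and 9, mouse 68 for day 8 and mouse 67 for day 10, so there the number and Ddx3y did not go together. The main comparisons do not use the numbers.

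The genes lie on 7 chromosomes of GRCm38, in the positions given by GENCODE M21, and all 10 are annotated as protein-coding. The surface receptors are Tlr1 (ENSMUSG00000044827.10, chr5:64924679-64933563 on the reverse strand), its neighbour Tlr6 (ENSMUSG00000051498.6, chr5:64952031-64960097 on the reverse strand), Tlr2 (ENSMUSG00000027995.10, chr3:83836272-83841767 on the reverse strand) and Tlr4 (ENSMUSG00000039005.13, chr4:66827584-66930284 on the forward strand). Among the endosomal receptors, Tlr3 (ENSMUSG00000031639.12) lies at chr8:45395665-45411080 on the reverse strand and Tlr9 (ENSMUSG00000045322.10) at chr9:106222598-106226883 on the forward strand. The X chromosome carries the others: Tlr7 (ENSMUSG00000044583.13, chrX:167304929-167330558 on the reverse strand), Tlr8 (ENSMUSG00000040522.5, chrX:167242696-167264329 on the reverse strand) and Tlr13 (ENSMUSG00000033777.4, chrX:106143204-106160493 on the forward strand). Unc93b1 (ENSMUSG00000036908.17) lies at chr19:3935186-3949340 on the forward strand. Tlr1 and Tlr6 are near-identical over part of their length: of all windows of 50 bases in their annotated transcripts, 13.6% of those of Tlr1 also occur in Tlr6 and 12.3% of those of Tlr6 also occur in Tlr1. The deposited counts could split reads of these paralogs, so both are uncertain to that extent. An antisense gene, Gm45542, overlaps Tlr3 and had 3 counts over all 24 libraries.

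Start-site sequences from RefSeq (GRCm38.p6, 250 bases before to 50 bases after the start) were at hand for 7 of the 10 genes, with 9 windows, and not for Tlr4, Tlr7 and Unc93b1. RefSeq and GENCODE do not place every start alike. The RefSeq start is the outer start of the GENCODE gene for Tlr8 and Tlr9, and it lies inside the gene by 71 bases for Tlr13, 159 for Tlr2, 700 for Tlr3, 5 and 864 for the windows of Tlr1 and 931 and 49 for those of Tlr6. The windows of Tlr8 and Tlr9, which both fell between days 7 and 8 as described further on, are printed on the strand of the gene, with matches to the searched motifs in capitals. The Tlr8 window is chrX:167264280-167264579 on the reverse strand and the Tlr9 window is chr9:106222348-106222647 on the forward strand.
Tlr8: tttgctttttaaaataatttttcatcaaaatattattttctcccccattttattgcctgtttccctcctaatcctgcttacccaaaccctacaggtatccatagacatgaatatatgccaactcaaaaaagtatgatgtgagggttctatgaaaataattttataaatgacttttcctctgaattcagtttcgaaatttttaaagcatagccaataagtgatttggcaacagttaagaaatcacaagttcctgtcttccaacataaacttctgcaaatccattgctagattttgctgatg
Tlr9: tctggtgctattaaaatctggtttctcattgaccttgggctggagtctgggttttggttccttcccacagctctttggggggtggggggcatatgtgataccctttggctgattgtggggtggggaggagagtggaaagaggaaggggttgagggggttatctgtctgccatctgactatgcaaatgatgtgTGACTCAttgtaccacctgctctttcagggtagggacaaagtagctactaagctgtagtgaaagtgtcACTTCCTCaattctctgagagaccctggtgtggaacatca
The motifs, searched on both strands, were the interferon-stimulated response element core (GAAA, any 2 bases, GAAA, in 3.44% of 32851 RefSeq windows of this length), the ETS-IRF element (GGAA, any 2 bases, GAAA, 2.72%), the PU.1 site GAGGAAGT (3.2%), the kappa B site (GGG, any 2 bases, TTTCC, 1.63%), the AP-1 site TGANTCA (7.81%) and the cyclic AMP response element TGACGTCA (1.79%). The first pair of these can overlap each other, and so can their own repeats. Tlr9 held an AP-1 match starting 58 bases before the start and a PU.1 match on the opposite strand 11 bases after it. Of the windows not printed, the first Tlr1 window held a PU.1 match 23 bases before the start. The kappa B match in the Tlr3 window lies inside the gene, in an exon of some GENCODE transcripts. It starts 211 bases before the RefSeq start, which is also the start of a GENCODE transcript. The 2 overlapping matches to the response element core in the first Tlr6 window lie in an intron. The RefSeq start of that window is 881 bases from the nearest GENCODE transcript start. The matches in Tlr3 and Tlr6 are thus not upstream of the outer start of the gene. The windows of Tlr2, Tlr8 and Tlr13 held none of these letters. Other forms of the same sites were not searched, so this does not show that such sites are absent. These matches are descriptions of sequence, and no binding was measured.

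Levels of different genes were set side by side as TPM, which corrects for transcript length. On day 7 in WT the endosomal receptors led. Tlr13, the sensor of bacterial ribosomal RNA, stood at 269 ± 8.76 TPM (SD, n = 3), followed by Tlr7 at 145 ± 13.2 and Tlr8 at 142 ± 5.21 TPM, which changed places among the libraries. Tlr2 ranked next at 90.0 ± 17.6 TPM and Tlr4 followed at 41.7 ± 2.71 TPM, each in the same rank in all 3 libraries. Tlr3, the sensor of double-stranded RNA, was the lowest of the 9 at 4.52 ± 0.852 TPM. Unc93b1 exceeded every receptor gene, at 816 ± 36.2 TPM. On day 8 Tlr2 took the first rank in all 3 WT libraries with 412 ± 35.2 TPM, ahead of Tlr13 at 214 ± 22.9 TPM. Tlr2 also had the highest mean of the 9 on days 9 and 10 in WT and on days 8, 9 and 10 in KO, although on day 9 in WT it ranked first or second depending on the library. Tlr3 kept the lowest mean in every group. The other mouse receptor genes Tlr5, Tlr11 and Tlr12 stayed at or below 2.53 CPM in each library.

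The make-up of the receptor transcripts turned over between days 7 and 8. The 5 endosomal receptors held 76.6 ± 1.83% of the summed TPM of the 9 receptor genes in WT on day 7 (75.2 to 78.6% in single libraries) and 42.6 ± 3.51% on day 8 (39.1 to 46.2%). In KO the shares were 68.3 ± 5.78% (62.2 to 73.6%) and 40.5 ± 1.54% (38.7 to 41.4%). The libraries of day 7 and day 8 did not overlap in either genotype. Later the endosomal share stood at 50.8 ± 3.98% and 52.3 ± 4.44% on days 9 and 10 in WT and at 47.4 ± 3.98% and 49.4 ± 4.68% in KO. The TPM sum of the 9 genes was highest on day 8, at 1030.5 ± 41.1 in WT and 1073 ± 78.9 in KO. On day 7 it was 762 ± 31.6 and 851 ± 47.0 TPM. The median over all tested genes also shifted up on the TPM scale between these days, as given below. No sum was taken on the count scale, so the size of this rise holds for TPM only. These shares are descriptions, with no test.

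**Figure D1:**
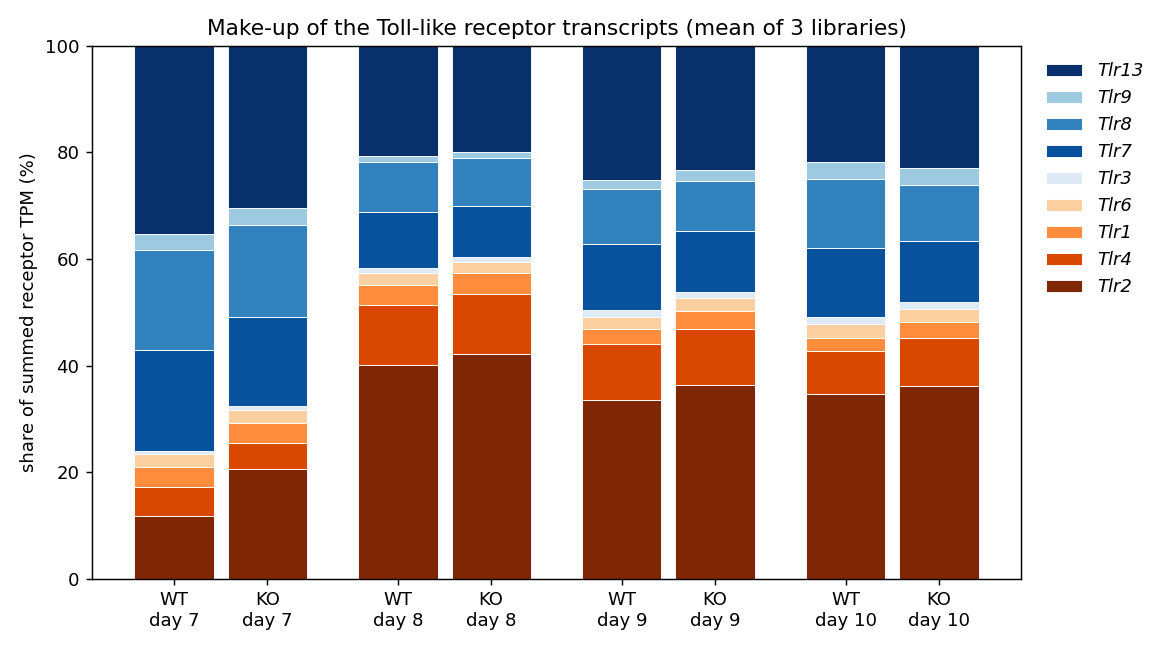
Stacked bars give each receptor gene's share, in percent, of the summed TPM of the 9 Toll-like receptor genes, as the mean of 3 libraries for each genotype and day. Surface receptors are in brown and orange and endosomal receptors in blue. Tlr2 held 11.8% in WT and 20.6% in KO on day 7 and 40.1% and 42.1% on day 8.

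The step from day 7 to day 8, the day after the cells were replated, held most of the movement. In WT, 8 of the 10 genes passed the threshold, an adjusted p under 0.05 in edgeR's quasi-likelihood test with Benjamini-Hochberg adjustment over all 14535 genes, where 43.4% of all genes passed. In KO, 8 of the 10 passed, against 42% of all genes. Tlr2, Tlr3 and Tlr4 were higher on day 8 in both genotypes (21.5% and 21.1% of all genes were), and Tlr7, Tlr8, Tlr9, Tlr13 and Unc93b1 were lower (22% and 20.9% of all genes). Tlr1 and Tlr6 did not pass. The median log2 fold change of the 10 genes stood at -0.23 in WT and -0.30 in KO, beside -0.00379 and 0.00180 over the whole set tested. The libraries of the 2 days did not overlap for 8 of the 10 in each genotype (59.8% of all genes in WT, 46.6% in KO). In bulk RNA of this kind, fewer cells of a type and less RNA per cell cannot be told apart.

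Tlr2, the common partner of the lipoprotein receptors, had the largest rise of the 10 genes in WT, and in KO Tlr4 had it. In WT Tlr2 stood at 118, 78.8 and 110.3 CPM on day 7 and at 394, 368 and 439 CPM on day 8. In KO it stood at 135, 256 and 179 CPM and then at 440.4, 389 and 430.4 CPM. All libraries of day 8 lay above all libraries of day 7 in each genotype, and on day 7 the KO libraries lay above the WT libraries. The rise was 3.91-fold in WT, a log2 fold change of 1.97 (SE 0.18, adjusted p = 4.7e-08), and 2.21-fold in KO, a log2 fold change of 1.14 (SE 0.17, adjusted p = 2.6e-05). Tlr4, the lipopolysaccharide receptor, went from 94.4, 82.4 and 85.3 CPM to 192, 229 and 207 CPM in WT, while the KO libraries went from 92.2, 79.9 and 81.4 CPM to 248, 220.0 and 158 CPM. Day 7 and day 8 were fully separated, with the KO library of mouse 68 the lowest of day 8. The log2 fold changes of Tlr4 were 1.26 (SE 0.14, adjusted p = 5.1e-07) in WT and 1.30 (SE 0.14, adjusted p = 3.7e-07) in KO.

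Tlr1 and Tlr6, the alternative partners of TLR2, did not pass in either genotype. Tlr1 stood at 30.7, 38.8 and 34.7 CPM on day 7 and 35.4, 45.6 and 41.7 CPM on day 8 in WT, with overlapping ranges and a log2 fold change of 0.23 (SE 0.21, adjusted p = 0.39), which passed on log2(TPM + 1) (0.45, adjusted p = 0.042). Tlr6 stood at 29.7, 25.9 and 26.9 CPM and 28.2, 28.4 and 27.6 CPM, a log2 fold change of 0.03 (SE 0.14, adjusted p = 0.88) with a 95% interval of -0.27 to 0.33. In KO the log2 fold changes were 0.18 (SE 0.21, adjusted p = 0.52) for Tlr1 and -0.09 (SE 0.14, adjusted p = 0.63) for Tlr6.

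Among the endosomal receptors, Tlr3 moved up while the others moved down. Tlr3 went from 10.7, 7.26 and 8.69 CPM to 15.1, 19.3 and 15.3 CPM in WT, while the KO libraries went from 10.7, 10.5 and 10.5 CPM to 20.96, 13.9 and 14.9 CPM, with no overlap between the days. Its log2 fold changes were 0.90 (SE 0.17, adjusted p = 2.7e-04) and 0.65 (SE 0.17, adjusted p = 0.0040), and in KO it did not pass without mouse 64 (0.46, adjusted p = 0.082). Tlr9, the receptor for unmethylated CpG DNA, fell most. It stood at 29.5, 32.1 and 30.6 CPM on day 7 and at 13.1, 13.1 and 10.2 CPM on day 8 in WT, and at 34.8, 35.2 and 31.7 CPM and 14.6, 17.5 and 11.6 CPM in KO. Every day 8 library was below every day 7 library, by 2.53-fold in WT (log2 fold change -1.34, SE 0.26, adjusted p = 3.7e-04) and 2.33-fold in KO (-1.22, SE 0.26, adjusted p = 8.5e-04).

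Tlr7 and Tlr8, sensors of single-stranded RNA and its fragments that lie next to each other on the X chromosome, kept similar levels. Tlr7 went from 246, 215 and 206 CPM to 139.9, 157 and 131 CPM in WT, a log2 fold change of -0.64 (SE 0.15, adjusted p = 0.0016). Tlr8 went from 201, 189 and 187 CPM to 102, 128 and 104 CPM, a log2 fold change of -0.79 (SE 0.19, adjusted p = 0.0019). The 2 days did not overlap for either gene. In KO the log2 fold changes were -0.70 (SE 0.15, adjusted p = 8.4e-04) for Tlr7 and -0.85 (SE 0.19, adjusted p = 0.0010) for Tlr8. Tlr13 fell from 441, 443 and 423 CPM to 285, 330.4 and 274 CPM in WT, while the KO libraries went from 455, 363 and 392 CPM to 301, 246 and 303 CPM. Its log2 fold changes were -0.56 (SE 0.18, adjusted p = 0.019) and -0.51 (SE 0.18, adjusted p = 0.032), the smallest past the threshold among the receptors. On log2(TPM + 1) with limma-trend Tlr13 did not pass in WT (-0.33, adjusted p = 0.069), nor did it without WT mouse 63 (-0.51, adjusted p = 0.14), mouse 65 (-0.62, 0.057) or mouse 66 (-0.51, 0.14). In KO the fall of Tlr13 did not pass on that scale (-0.28, adjusted p = 0.12) or with mouse 63, 64, 65, 66 or 68 left out (adjusted p = 0.051 to 0.074).

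Unc93b1, the chaperone that delivers these receptors to endosomes, fell with the larger share of them. It stood at 899.6, 916 and 982 CPM on day 7 and at 683, 615 and 695 CPM on day 8 in WT. In KO it stood at 957, 855 and 1033 CPM and 645, 551 and 746 CPM. The days did not overlap, and the log2 fold changes were -0.49 (SE 0.11, adjusted p = 9.4e-04) in WT and -0.55 (SE 0.11, adjusted p = 3.3e-04) in KO. Libraries deposited as TPM were scaled to a common sum, and on log2(TPM + 1) the median over the tested genes shifted to 0.17 (WT) and 0.17 (KO) for day 8 against day 7 and to 0.21 and 0.25 for day 10 against day 7. On that scale 74.7% and 75.7% of the calls for day 8 were higher, against 49.4% and 50.3% in the count fit. The fall of Unc93b1 between days 7 and 8 stayed past the threshold there, at -0.26 in WT and -0.33 in KO.

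**Figure D2:**
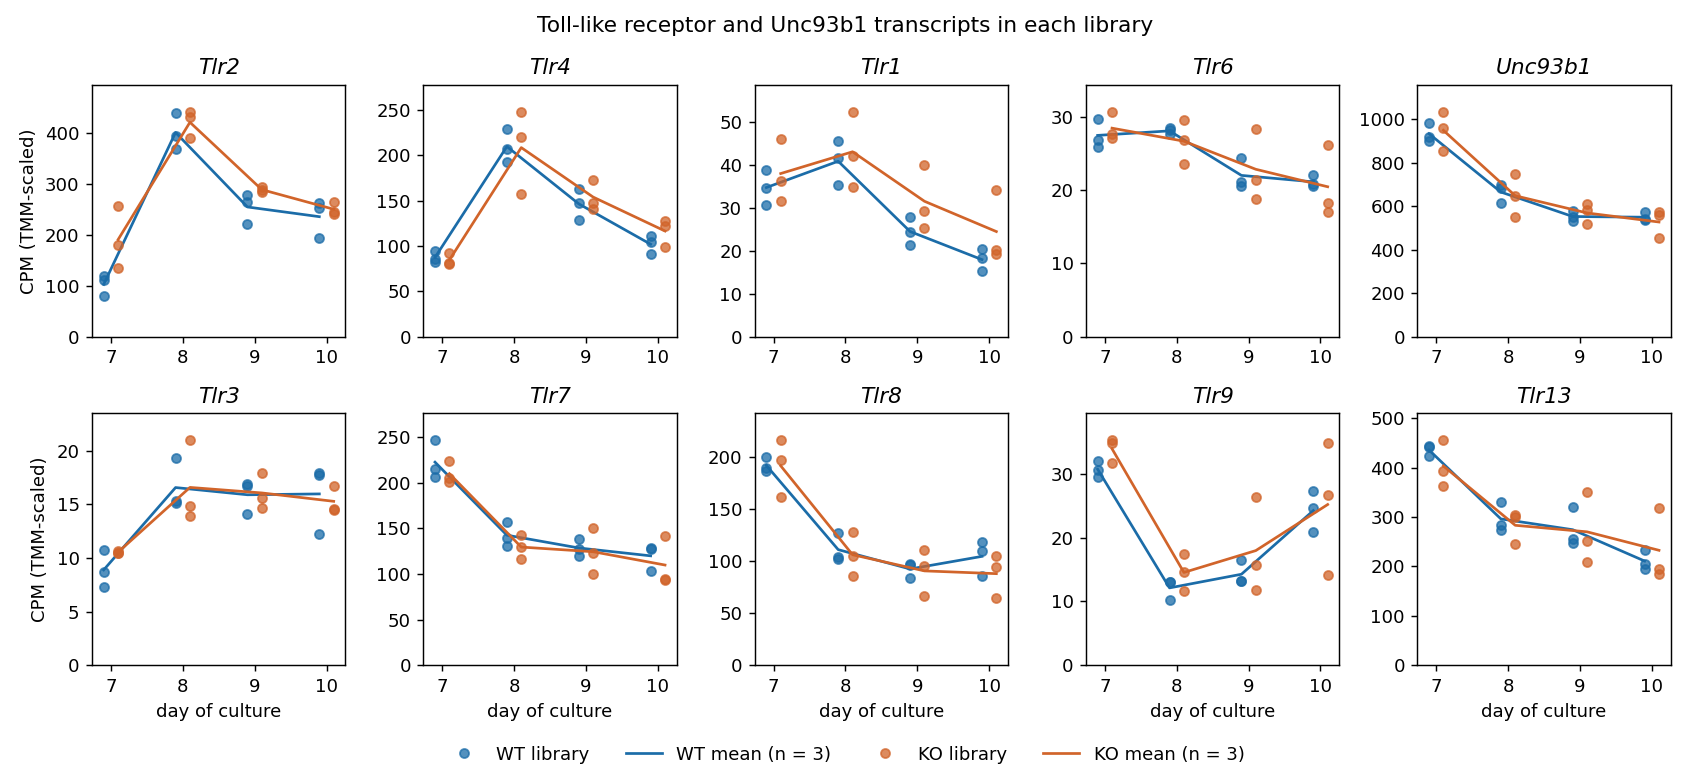
Each panel plots 1 gene, with TMM-scaled CPM on a linear axis from 0 against the day of culture. Points are single libraries and lines join the means of 3 libraries, blue for WT and orange for KO. Tlr2 and Tlr4 peak on day 8, Tlr7, Tlr8, Tlr13 and Unc93b1 are highest on day 7, and Tlr9 has its lowest mean on day 8.

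After day 8 fewer of the 10 genes passed. In WT, 3 genes passed for day 9 against day 8 (5.4% of all genes, 2.34% lower), all lower: Tlr2 (-0.65, SE 0.17, adjusted p = 0.032), Tlr4 (-0.52, SE 0.14, adjusted p = 0.032) and Tlr1 (-0.74, SE 0.21, adjusted p = 0.047). With the mouse as a block the call of Tlr1 was lost (adjusted p = 0.054). Tlr2 stood at 277, 221 and 265 CPM on day 9, below every day 8 library, and Tlr1 stood at 21.4, 27.8 and 24.3 CPM. For day 10 against day 9 in WT, 1 gene passed (3.6% of all genes, 2.42% lower), Tlr4, which went from 129, 148 and 163 CPM to 111, 104 and 90.8 CPM (-0.52, SE 0.14, adjusted p = 0.039). In KO, 0 of 10 passed in edgeR for day 9 against day 8 (2.33% of all genes), with 3 at an unadjusted p under 0.05 (18.7% of all genes) and 2 called by the DESeq2 Wald test (6.34%). In KO, 0 of 10 passed for day 10 against day 9 (0.0963% of all genes) in edgeR and 0 in DESeq2 (1.65%), with 1 at an unadjusted p under 0.05 (12%). With mouse 63, 65 or 66 left out in turn, which leaves 2 libraries in each WT group, 0 of 10 passed in WT for either step (0.115% to 0.285% of all genes for day 9 against day 8, 0% to 1.23% for day 10 against day 9). In these refits the log2 fold changes for day 9 against day 8 were -0.73, -0.62 and -0.61 for Tlr2, -0.75, -0.75 and -0.71 for Tlr1 and -0.49, -0.45 and -0.60 for Tlr4, and that of Tlr4 for day 10 against day 9 was -0.67, -0.54 and -0.38. On log2(TPM + 1) Tlr2 (-0.61, adjusted p = 0.077) and Tlr4 (-0.47, adjusted p = 0.093) lost the call for day 9, and Tlr4 lost that for day 10 (-0.51, adjusted p = 0.079). Without KO mouse 68, 1 gene passed for day 9 against day 8 in WT (4.53% of all genes), and without KO mouse 67, 4 did (11.3%). With KO mouse 67 left out, 6 passed for day 10 against day 9 in KO (Tlr1, Tlr4, Tlr6, Tlr7 and Tlr13 lower, Tlr9 higher), where 14.2% of all genes passed. Groups did not overlap for 7 genes in WT and 1 in KO between days 8 and 9 (33.8% and 16.8% of all genes), and for 4 in WT and 2 in KO between days 9 and 10 (25.9% and 13%).

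Tlr9 had its lowest mean on day 8. In WT it stood at 16.4, 13.2 and 13.1 CPM on day 9 and at 27.2, 20.9 and 24.6 CPM on day 10, with no overlap between these days. The log2 fold change of day 10 against day 9 was 0.77 (SE 0.26, adjusted p = 0.12), which did not pass, and Tlr9 did pass with only the libraries compared (adjusted p = 0.0091), without KO mouse 67 (0.0048), without a filter (0.045) and without the KO libraries that carry Ddx3y (0.011). In KO it stood at 11.8, 26.3 and 15.8 CPM and 34.8, 14.1 and 26.7 CPM. These KO libraries differed widely within each day, and the change did not pass (0.49, SE 0.26, adjusted p = 0.47). Without mouse 67 the change of Tlr9 in KO was 1.14 and passed (adjusted p = 9.5e-04). The KO library numbered 67 carries Ddx3y on day 10 and not on day 9, so leaving out that number need not leave out 1 animal, here or in the other KO refits.

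**Figure D3:**
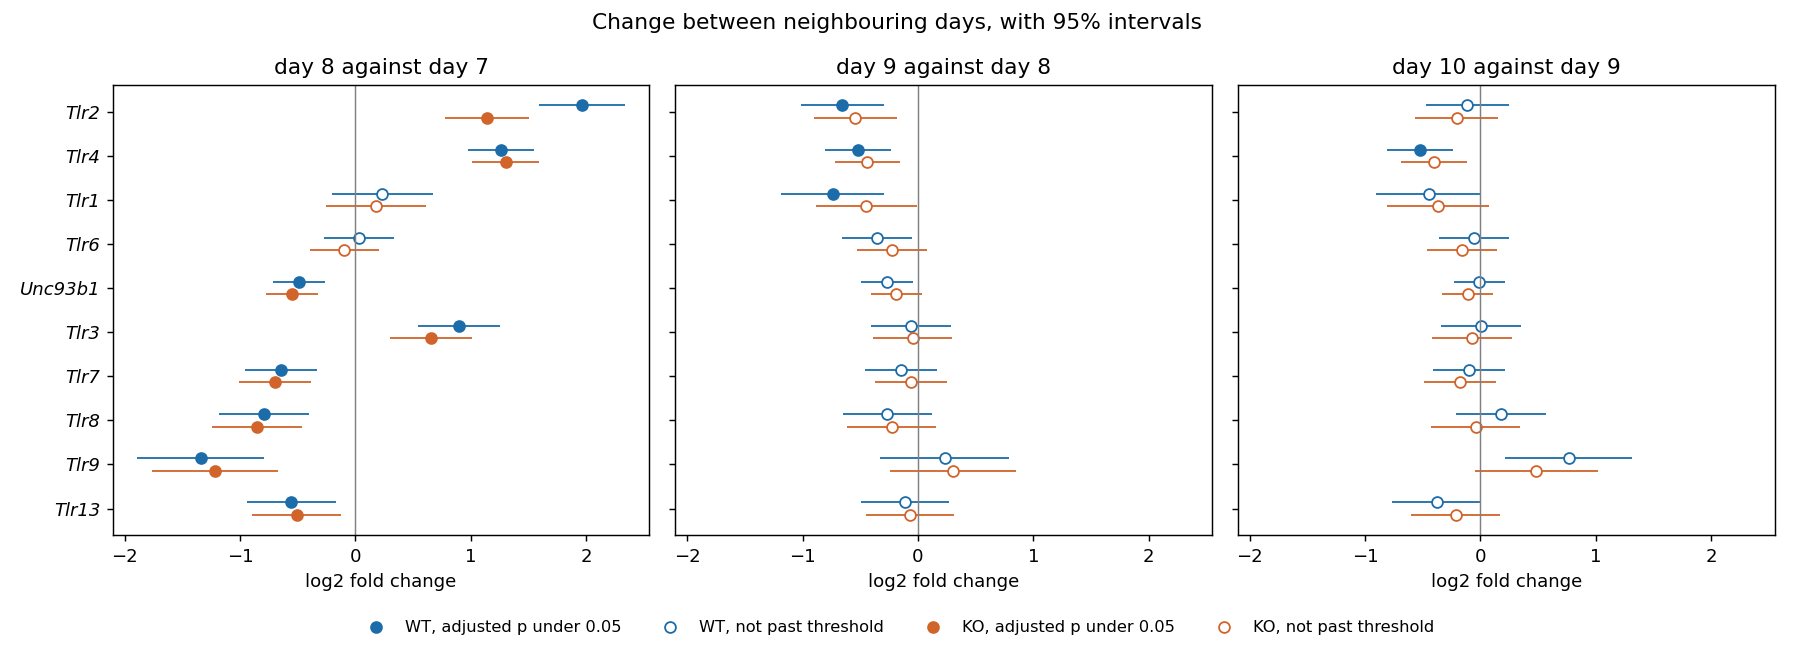
Points give the log2 fold change of each gene between neighbouring days (day 8 against 7, 9 against 8, 10 against 9) with 95% intervals from the edgeR fit, blue for WT and orange for KO. Filled points have an adjusted p under 0.05. The filled points lie mostly in the first panel, where Tlr2 reached 1.97 in WT and Tlr9 -1.34.

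Over the whole interval, day 10 against day 7, Tlr7, Tlr8, Tlr13 and Unc93b1 ended lower in both genotypes. This comparison shares its day 7 libraries with day 8 against day 7. In WT, 8 of the 10 passed (37% of all genes), with Tlr2 and Tlr3 higher (18.9% of all genes) and Tlr1, Tlr6, Tlr7, Tlr8, Tlr13 and Unc93b1 lower (18.1%). In KO, 8 of the 10 passed (36.8% of all genes), with Tlr3 and Tlr4 higher (19.7%) and Tlr1, Tlr6, Tlr7, Tlr8, Tlr13 and Unc93b1 lower (17.1%). The days did not overlap for 9 genes in WT and 7 in KO (51.7% and 43.2% of all genes). The median log2 fold change of the 10 genes stood at -0.57 in WT and -0.56 in KO, beside -0.0153 and 0.00334 over the whole set. Of all calls, 51.1% were higher in WT and 53.6% in KO in the count fit, and 84.4% and 85.9% on the TPM scale.

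Tlr13 was at 194, 234 and 205 CPM on day 10 in WT and 185, 319 and 194 CPM in KO. All of these lay below the day 7 libraries, and mouse 67 stood above the other KO libraries. The log2 fold changes of Tlr13 were -1.05 (SE 0.19, adjusted p = 1.9e-04) in WT, a 2.07-fold fall, and -0.79 (SE 0.19, adjusted p = 0.0022) in KO. Tlr7 was at 129, 128 and 103 CPM and 94.5, 142 and 93.1 CPM on day 10, with log2 fold changes of -0.89 (SE 0.15, adjusted p = 1.1e-04) and -0.94 (SE 0.15, adjusted p = 8.0e-05). Tlr8 ended at 119, 109.9 and 85.4 CPM and 65.0, 105 and 94.2 CPM, with log2 fold changes of -0.88 (SE 0.19, adjusted p = 0.0010) and -1.12 (SE 0.19, adjusted p = 1.2e-04). For Tlr7 and Tlr8 too, all day 10 libraries lay below those of day 7. Unc93b1 ended at 536, 539.8 and 572 CPM in WT, against 451, 558 and 571 CPM in KO, falls of 1.70-fold and 1.80-fold (log2 fold changes -0.76, SE 0.11, adjusted p = 1.7e-05 and -0.85, SE 0.11, adjusted p = 6.3e-06). Tlr3 ended higher, at 17.9, 17.8 and 12.3 CPM and 14.6, 16.8 and 14.5 CPM (0.84, SE 0.17, adjusted p = 6.6e-04 and 0.54, SE 0.17, adjusted p = 0.017), and did not pass in KO without mouse 67 (adjusted p = 0.092), without mouse 68 (0.078) or without the KO libraries that carry Ddx3y (0.086). Tlr9 did not pass in WT (-0.34, SE 0.26, adjusted p = 0.32), where the days did not overlap, or in KO (-0.43, SE 0.26, adjusted p = 0.20), where they did. With only the libraries compared it passed in WT (-0.33, adjusted p = 0.026), where 41.2% of all genes passed in that fit.

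The surface receptors ended at different points. Tlr2 stood at 251, 193 and 261 CPM on day 10 in WT and 245, 241 and 264 CPM in KO, against day 7 a log2 fold change of 1.20 (SE 0.18, adjusted p = 2.6e-05) in WT and 0.39 (SE 0.17, adjusted p = 0.080) in KO. In KO mouse 67 of day 7 lay within the range of day 10, and the change in KO did pass without mouse 67 (0.69, adjusted p = 0.0045), without a filter (0.41, adjusted p = 0.042), and on the TPM scale (0.74, adjusted p = 0.0027). It also passed with the mouse as a block (0.41, adjusted p = 0.037), a fit that is doubtful in KO because the numbers did not go with Ddx3y. Tlr4 stood at 111, 104 and 90.8 CPM in WT (0.22, SE 0.14, adjusted p = 0.22) and 122, 128 and 99.4 CPM in KO (0.46, SE 0.14, adjusted p = 0.012). On the TPM scale Tlr4 passed in WT as well (0.49, adjusted p = 0.012), and without mouse 67 it did not pass in KO (0.34, adjusted p = 0.12). Tlr1 ended lower, at 18.3, 20.4 and 15.2 CPM in WT, below every library of day 7, and at 19.2, 34.1 and 20.1 CPM in KO, where mouse 67 overlapped day 7. Its log2 fold changes were -0.95 (SE 0.22, adjusted p = 0.0017) and -0.64 (SE 0.21, adjusted p = 0.023). Tlr6 had log2 fold changes of -0.38 (SE 0.14, adjusted p = 0.045) in WT and -0.48 (SE 0.14, adjusted p = 0.013) in KO. Neither held on the TPM scale, at -0.09 (adjusted p = 0.50) and -0.18 (adjusted p = 0.15), and Tlr1 in KO did not hold there either (-0.35, adjusted p = 0.10). Tlr6 in WT also lost its call with the mouse as a block (-0.38, adjusted p = 0.070) and without a filter (-0.36, adjusted p = 0.056). With a single mouse left out, Tlr6 in WT did not pass without 63, 65, 66 or 68, and in KO neither Tlr1 nor Tlr6 passed without 64 or 68. Without 64 the log2 fold change of Tlr1 in KO was -0.33 (adjusted p = 0.33) and that of Tlr6 -0.30 (adjusted p = 0.16). With only the libraries compared both missed the threshold in KO (adjusted p = 0.097 and 0.080).

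KO and WT were compared on each day, the question set by the design. On day 7, 1 of the 10 genes passed, Tlr2, against 1.45% of all genes (0.832% higher). Tlr2 stood at 118, 78.8 and 110.3 CPM in WT, against 135, 256 and 179 CPM in KO. All 3 KO libraries were above all 3 WT libraries (26.2% of all genes had no overlap in either direction), and the KO libraries were spread over a wider range than those of WT. The difference was 1.86-fold, a log2 fold change of 0.89 (SE 0.17, adjusted p = 0.015). Its size stood between 0.64 and 1.11 in the other fits, and the call did not hold without mouse 63 (adjusted p = 0.059), 65 (0.13), 66 (0.12) or 67 (0.081), nor when only the 6 libraries of day 7 were fitted (0.076). Without the KO libraries that carry Ddx3y it was 1.09 (adjusted p = 0.0018).

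Marker lists were read on the same day. Of 20 interferon-stimulated genes, 8 passed as higher in KO (0.832% of all genes), and their summed level was 525 to 807 CPM in KO and 361 to 446 CPM in WT. Of 10 cell cycle genes 0 passed in edgeR, with sums of 212 to 446 CPM in KO and 137 to 177 CPM in WT. Mast cell and basophil markers summed to 68.3 to 218 CPM in KO and 60.4 to 76.8 CPM in WT, with 0 of 5 past the threshold. Macrophage markers summed to 4521 to 5779.6 CPM in KO and 4849 to 5246 CPM in WT. Of these 9 genes, 1 passed the threshold (1.45% of all genes in both directions). The KO sums of dendritic cell markers were 2949.9 to 3701 CPM and those of WT 2591 to 3288 CPM, with 0 of 12 past the threshold in edgeR. Monocyte markers gave 2401 to 3036 CPM (KO) beside 2122 to 2755 CPM (WT), with 1 of 6 higher (Vcan), and neutrophil markers 2484 to 3601 CPM beside 2194 to 2789.9 CPM, with 0 of 9. The KO library with the highest Tlr2, that of mouse 67 at 256 CPM, also had the highest interferon-stimulated, cell cycle, mast cell, neutrophil and dendritic cell sums of day 7 and the lowest macrophage sum. The part of these in the Tlr2 result was not tested.

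For the other 9 genes on day 7 the 95% intervals of the log2 fold change ran from -0.50 to 0.68. On day 8, 0 of 10 passed in edgeR, against 0.00688% of all genes. The other days gave 0 of 10 as well, against 0.00688% for day 9 and 0.0138% for day 10. None of these 3 days had a member with an unadjusted p under 0.05, against 5.91%, 8.15% and 7.3% of all genes on days 8, 9 and 10. The DESeq2 Wald test called 0 of 10 on each, and 0.124%, 0.658% and 0.308% of all genes. WT and KO overlapped for all 10 genes on days 8 and 10, while 9.39% and 10.4% of all genes had no overlap. Over these 3 days the 95% intervals of the 10 genes lay between -0.64 and 0.89, so differences up to that size are not excluded at this spread. Unc93b1 had the narrowest intervals, -0.20 to 0.25 on day 7, -0.26 to 0.18 on day 8, -0.18 to 0.26 on day 9 and -0.28 to 0.16 on day 10. Tlr1 came closest to a difference on day 10, at 18.3, 20.4 and 15.2 CPM in WT, against 19.2, 34.1 and 20.1 CPM in KO, where the 2 groups overlapped (log2 fold change 0.45, SE 0.21, adjusted p = 0.69). Tlr2 on day 9 had no overlap (14.1% of all genes), at 277, 221 and 265 CPM in WT, against 294, 287 and 283 CPM in KO, and a log2 fold change of 0.18 (SE 0.17, adjusted p = 0.89).

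**Figure D4:**
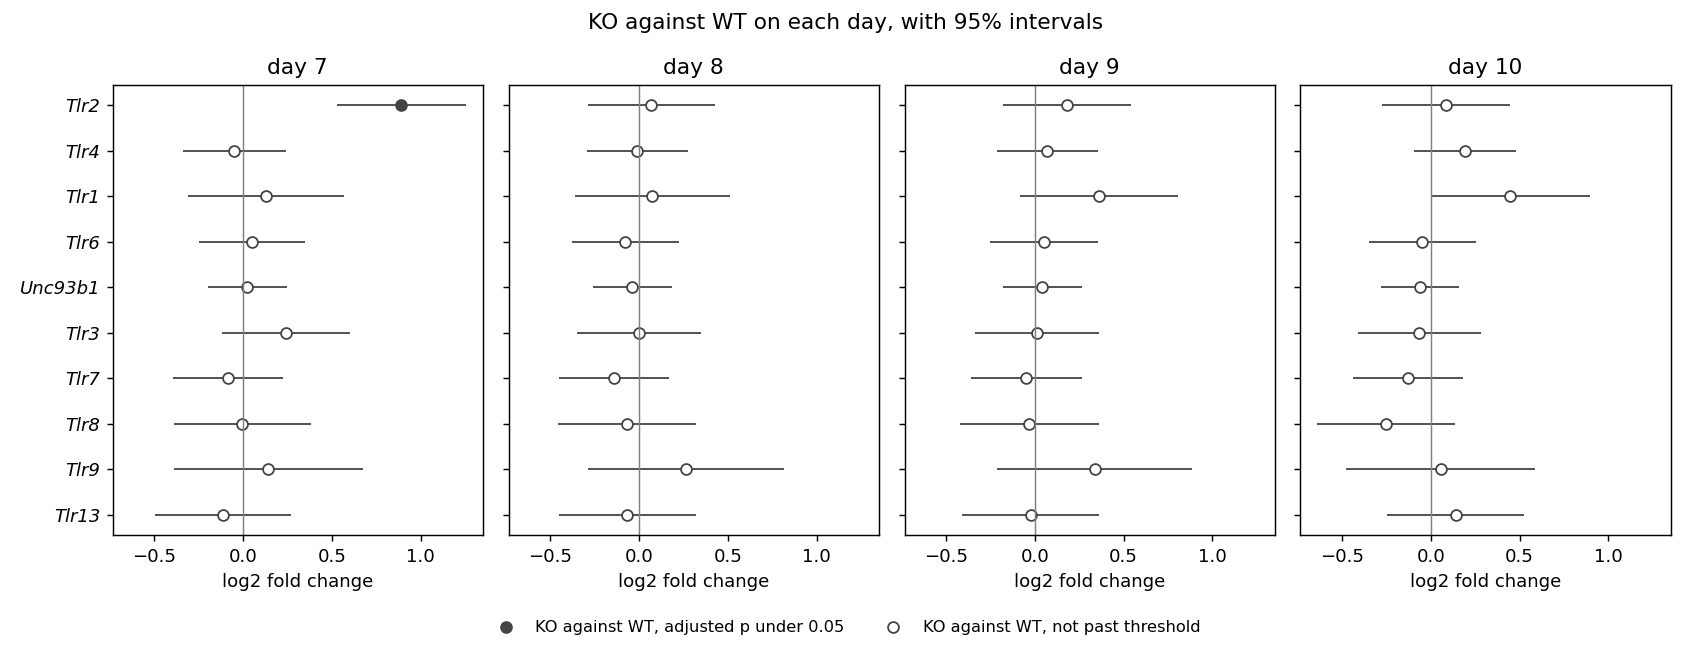
Points give the log2 fold change of KO against WT on each day with 95% intervals from the edgeR fit, 1 row per gene. The filled point, Tlr2 on day 7 at 0.89, has an adjusted p under 0.05, and every other point is open.

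Whether the change over days differed between genotypes was tested directly, with contrasts that share the day 7 libraries with the comparisons above. For the change from day 7 to day 8, 0 of 10 passed in edgeR (0.0275% of all genes), and for the change to day 10, 0 of 10 passed (0.0619%). Tlr2 had the largest differences in size among the 10 genes, -0.82 (SE 0.24, adjusted p = 0.62) for day 8 and -0.81 (SE 0.24, adjusted p = 0.50) for day 10. Of the 10 genes 1, Tlr2, had an unadjusted p under 0.05 in each, near the share of all genes that did (4.71% and 6.31%), and the DESeq2 Wald test called 0 of 10 (0.215% and 0.27% of all genes). The Tlr2 values of WT and KO were apart on day 7 and overlapped on day 8, and the difference in their course did not pass this test.

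Several genes varied more among KO than among WT libraries on day 10, which was not tested. On day 10 the coefficient of variation of Tlr9 was 13.1% in WT and 41.3% in KO, that of Tlr13 was 9.79% and 32.0%, and that of Tlr1 was 14.5% and 34.2% (n = 3 each). The order was reversed for Tlr2, at 15.7% and 4.93%, and for Tlr3, at 20.1% and 8.36%. The library that carries Ddx3y set the upper end for several genes in KO. Tlr1, Tlr6 and Tlr13 were higher in it than in the other 2 KO libraries on all 4 days. Tlr3, Tlr4, Tlr7 and Tlr8 were higher in it on 3 of 4 days. For Tlr13 it stood at 350.5 CPM on day 9 and 319 CPM on day 10, against 208 to 251 and 185 to 194 CPM in the others. Tlr9 was lower in it than in the others on days 8, 9 and 10, at 14.1 CPM on day 10 against 26.7 to 34.8 CPM. In the WT library that carries Ddx3y, Tlr1 was the lowest of its group on 3 of 4 days and Tlr13 on 2. Tlr3, Tlr4, Tlr7 and Tlr8 were each the highest of the group there on 2 of 4 days.

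Marker sums of that KO library also stood apart. Its dendritic cell markers summed below the other KO libraries on all 4 days, at 5172 CPM on day 10 against 6925 to 9142 CPM. Its macrophage markers summed above them on days 8, 9 and 10, at 3868 CPM on day 10 against 2753 to 3093 CPM. Its cell cycle, interferon-stimulated and mast cell sums were below the others on all 4 days too. The WT library that carries Ddx3y likewise had the lowest dendritic cell sum of its group on all 4 days, but the lowest macrophage sum on 3 of 4 days and the highest cell cycle sum on all 4. The part of these markers in the spread of Tlr1, Tlr9 and Tlr13 was not tested.

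The same markers changed with time. Macrophage sums were 4849 to 5246 CPM on day 7 and 2962 to 3021 CPM on day 10 in WT, with 6 of 9 genes past the threshold as lower (18.1% of all genes), and 4521 to 5779.6 and 2753 to 3868 CPM in KO, with 7 of 9 lower (17.1%). Dendritic cell sums were 2591 to 3288 and 5877 to 7920.1 CPM in WT and 2949.9 to 3701 and 5172 to 9142 CPM in KO, with 8 of 12 higher in each (18.9% and 19.7% of all genes). All 10 cell cycle genes were higher on day 10 in both genotypes, with sums of 137 to 177 and 789.5 to 1012 CPM in WT. Between days 7 and 8, the WT libraries had monocyte sums of 2122 to 2755 CPM on the first day and 760.1 to 819.9 CPM on the next, and the KO libraries 2401 to 3036 and 724 to 1152 CPM. Their part in the fall of Tlr7, Tlr8, Tlr13 and Unc93b1 was not tested.

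The other genes of the pathway, 77 listed and 74 tested, gave 24 higher and 17 lower on day 8 in WT and 21 higher and 20 lower in KO (21.5% and 22% of all genes in WT, 21.1% and 20.9% in KO), in lists chosen with earlier results known. Co-receptors and ligand carriers were lower: 4 of 6 in each genotype and 0 higher. Cd14, which passes lipopolysaccharide to TLR4, went from 217 ± 38.8 to 70.4 ± 7.87 CPM in WT (SD, n = 3), a log2 fold change of -1.62 (SE 0.13, adjusted p = 7.8e-09), opposite in sign to Tlr4. In KO it was -1.50 (adjusted p = 2.3e-08), and by day 10 it was -2.36 and -2.04. Lbp, the lipopolysaccharide-binding protein, changed by -1.97 and -2.14 on day 8, and Ly86, the partner of CD180, by -1.57 and -1.76 (adjusted p = 4.6e-04 and 1.6e-04).

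Among folding, trafficking and processing genes, 3 of 14 were higher and 5 lower in WT and 2 higher and 6 lower in KO, so that the higher genes were no more than about the share over all genes given above. Hsp90b1, the chaperone gp96 that folds most Toll-like receptors, was higher by 0.50 and 0.48 on the log2 scale. Ctss, a protease that cleaves endosomal receptors, was lower in both, with a log2 fold change of -0.97 in WT, and Slc15a3, an endolysosomal peptide transporter, stood at -0.60 and -0.65. Of 5 adaptors tested, Myd88 rose from 59.7 ± 5.41 to 110.3 ± 5.61 CPM in WT (log2 fold change 0.89, adjusted p = 2.9e-07) and by 0.76 in KO. Ticam2, the bridging adaptor of TLR4, fell by 0.64 on the log2 scale in WT and by 0.55 in KO.

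Signalling genes divided, and their counts are to be read against 21.5% higher and 22% lower among all genes in WT and 21.1% and 20.9% in KO. Of 16 kinases and ubiquitin ligases, 2 were higher and 6 lower in WT and 1 higher and 6 lower in KO, with Traf3 at 0.81 and 0.76 and Irak2 at -0.61 and -0.56. Of 8 transcription factors, 5 were higher in WT and 4 in KO with 0 lower, led by Nfkb2 at 0.98 and 0.90. Of 9 negative regulators, 6 were higher and 1 lower in each genotype. Socs1, an inhibitor of cytokine and receptor signalling, had the largest change of these, from 6.31 ± 0.307 to 66.3 ± 5.01 CPM in WT, with KO means of 7.58 ± 0.830 and 81.3 ± 5.45 CPM (log2 fold changes 3.39 and 3.42, adjusted p = 5.6e-14 and 2.6e-14). Of 13 cytokine and enzyme targets tested, 6 were higher and 0 lower in each genotype, with Tnf at 3.09 and 2.59 and Ccl4 at 1.94 and 1.21.

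By day 10 more pathway genes were lower than higher in the count fit, with 14 genes higher and 28 lower in WT and 10 higher and 26 lower in KO, against 18.9% and 18.1% of all genes in WT and 19.7% and 17.1% in KO. Cxcl2, a chemokine for neutrophils, was at -2.74 in WT and -1.83 in KO on the log2 scale, and Tnfaip3, the ubiquitin-editing enzyme A20, at -1.05 and -1.10, while Socs1 stayed higher at 2.72 and 2.90. Between KO and WT 1 of the 74 passed on day 7, near the 1.45% of all genes, and 0 passed on days 8, 9 and 10 in edgeR. It was Irak3, an inhibitor of the receptor-bound kinases, with means of 35.1 ± 2.28 (WT) and 46.1 ± 4.06 CPM (KO), a log2 fold change of 0.39 (SE 0.10, adjusted p = 0.045). The call of Irak3 did not hold on log2(TPM + 1), with the mouse as a block, or without mouse 63, 65, 66, 67 or 68.

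Courses most like those of the members were sought among 11111 genes with an average log2 CPM above 1, as the root mean square difference of the 8 centred group means. The measure is a description over 8 groups. For Tlr7 the nearest were Npc2 (0.0497 on the log2 scale), Hexa (0.0498) and Cd300lb (0.0563). For Tlr8 they were Mpeg1 (0.0666), Agap1 (0.0728) and Hcst (0.0777), and for Tlr13 they were Rin2 (0.0534), Cdk20 (0.0639) and Rusc2 (0.0695). Of the others, Tlr2 was nearest to Lfng (0.146), Tlr4 to Eef1e1 (0.0891), Tlr1 to Gpr65 (0.0972) and Tlr9 to Serinc5 (0.104). The group means of Tlr3, Tlr6 and Unc93b1 spanned less than 1 on the log2 scale and were not matched.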

How the data were processed

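Bulk messenger RNA of 24 cultures was measured by paired-end sequencing. The authors deposited whole-number counts per gene and TPM, both without stated counting rules. Per the submitters' processing notes the tools included FastQC 0.11.9, STAR 2.6.1 and DESeq2 1.22.2, with the build mm10. The stranded kits were of 2 kinds, per the labels' protocols, without saying which library used which, so kit and group cannot be told apart.

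Counts were analysed in R 4.3.3 with edgeR 4.0.16: filterByExpr over 8 groups (14535 of 28655 genes with a count), TMM factors, and a quasi-likelihood fit of all 24 libraries with 1 coefficient per group and 16 residual degrees of freedom. Tests were two-sided, with Benjamini-Hochberg adjustment over 14535 genes and a threshold of 0.05, in 14 comparisons. CPM are TMM-scaled. Standard errors were derived from each F statistic. Alternatives used DESeq2 1.42.0, limma 3.58.1 (on TPM with a pseudocount of 1 or 0.1, and voom), other filters, a term for Xist, leaving out each mouse, and the mouse as a block. A further alternative, without the 4 KO libraries that carry Ddx3y, was chosen after seeing the data. The scripts were tested on simulated counts.

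The members, gene lists and rules were chosen with earlier results of these data known. All 10 members are described. From each pathway list, up to 4 genes with the smallest adjusted p past the threshold are named. The 3 most alike genes were found for members whose group means span at least 1 on the log2 scale. All 3 are named for Tlr7, Tlr8 and Tlr13, and the nearest for the others.

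Totals of 19952047 to 31049798 counts leave counting error small for the members, whose counts were 155 or more in each library. No pair of libraries in a group agreed within sampling noise (chi-square per degree of freedom 5.25 to 87.1 in 24 pairs). The p-values rest on the spread between the 3 cultures within a group, pooled over all 8 groups in 1 fit. The spread of KO libraries therefore enters the p-values of WT comparisons. The main fit also treats same-numbered libraries of different days as independent. Same-numbered WT libraries deviated together (r = 0.149 to 0.737 over 11111 genes in 18 pairs of days, from the mouse numbers in the labels), and KO ones did so in 7 of 18 pairs (r above 0.1, range -0.796 to 0.798).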

Additional observations from a re-analysis of the deposited data

How the results depend on the processing

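Of 37 member results past the threshold, 24 kept their call and direction in all 16 alternatives, 13 lost the call in at least 1, and 0 reversed. Of 103 results not past it, 17 passed in some alternative. Counts of members are out of 10. The percentage beside each is the share of all genes tested that passed in the same fit. With 1 mouse left out in turn, KO against WT on day 7 gave 0 to 1 (0 without 63, 65, 66 or 67; 0.0743% to 2.4%), day 10 against day 7 in KO 5 to 8 (5 without 68; 21.9% to 39.6%), day 9 against day 8 in WT 0 to 4 (0.115% to 11.3%), day 10 against day 9 in WT 0 to 2 (0% to 7.25%), and day 10 against day 9 in KO 0 to 6 (6 without 67; 0% to 14.2%). With only the libraries compared, KO against WT on day 7 gave 0 (2.36%), day 9 against day 8 in WT 5 (16.6%) and day 10 against day 9 in WT 2 (6.26%). With limma-trend on TPM, day 9 against day 8 in WT gave 1 (3.58%, the same at both pseudocounts) and day 10 against day 9 in WT 0 (2.61% and 2.48%). With no filter, day 10 against day 9 in WT gave 2 (1.4%) and day 9 against day 8 in KO 2 (2.08%), and the DESeq2 Wald test gave 2 for the latter (6.34%). Without the KO libraries that carry Ddx3y, day 10 against day 9 in WT gave 4 (7.77%) and day 9 against day 8 in KO gave 1 (7.51%). In the other settings counts stayed within 1.5 times. The causes were not tested.

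With the mouse as a replicate block (a random block in limma voom, correlation 0.0046, for KO against WT; a fixed term in edgeR for days), 1 member passed for KO against WT on day 7 (0.998%) and 0 on later days (0.00688%, 0.00688% and 0.0138%), 8 in WT (43.4%) and 8 in KO (41.6%) for day 8 against day 7, and 7 in WT (37.3%) and 9 in KO (36.5%) for day 10 against day 7. Tlr6 in WT for day 10 against day 7 (adjusted p = 0.070) and Tlr1 in WT for day 9 against day 8 (0.054) lost their call, and Tlr2 in KO for day 10 against day 7 gained one (0.41, 0.037). The block changed no other member's call. In KO the numbers did not go with Ddx3y, and same-numbered libraries correlated above 0.1 in 7 of 18 pairs, so the block is doubtful there. The voom correlation was estimated over both genotypes together. It was so small that the fit for KO against WT made little use of the block. The call kept on day 7 in that fit is therefore no check on the mouse numbers. Over all genes, calls for KO against WT on day 7 went from 211 to between 11 and 833, and those for day 9 against day 8 in WT from 785 to between 17 and 2180.

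On the TPM scale, where the median of all genes shifted up, some pathway genes that were lower in the count fit had values above 0 (pseudocount 1, then 0.1): for day 10 against day 7 in WT, Ap3d1 (0.022, 0.023), Tab2 (0.022, 0.022), Rela (0.074, 0.075), Tollip (0.061, 0.062); for day 10 against day 7 in KO, Ap3d1 (0.10, 0.10), Irak4 (0.13, 0.13), Ikbkb (0.038, 0.040), Rela (0.052, 0.053), Tollip (0.057, 0.058); for day 8 against day 7 in KO, Slc15a4 (0.027, 0.028), Ticam1 (0.015, 0.015), Irak4 (0.015, 0.015), Tab2 (0.0028, 0.0028).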
